A study of Mus musculus with 6 samples.

Results

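The hour of reoxygenation that follows cyclic hypoxia was described in B16 cells, a mouse melanoma line, by setting the array of cells collected after that hour against the array of cells collected at the end of the exposure. These are 2 of the 6 Affymetrix arrays of the series, 1 array per group. Among 12394 genes named by a single probe set or more, 3573 had a mean signal of at least 100 units over all 6 arrays, and these are the genes described. Each gene was represented by its brightest probe set, signals under 2.1 units were set to 2.1, and the difference is the log2 signal after the hour minus the log2 signal before it. With 1 array on each side no difference has an error and none was tested, so every value below describes these arrays.

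The series asks how steady or intermittent lack of oxygen alters the transcriptome of melanoma cells. All groups were the same line, grown in alpha MEM with serum and moved to medium without serum 2 h before the regimes began, so the reoxygenated cells and the controls alike lacked serum. Cells stayed in normoxia for 3 h, in chronic hypoxia (under 1% oxygen) for 3 h, or went through 3 periods of 1 h of hypoxia with reoxygenation for 30 min between them (cyclic hypoxia). Each regime was collected at once or 1 h later, and cRNA was made from 5 µg of total RNA. The last hour of the chronic and of the normoxia regime is given beside the cyclic one as a yardstick, since those pairs share no array with it. The labels name no separate cultures and no normoxia control of the longer cyclic schedule, so time in culture and oxygen cannot be told apart across regimes.

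Cells sense oxygen through prolyl hydroxylases that mark the HIF-alpha proteins for destruction, so that HIF targets such as glucose transporters, glycolytic enzymes and mitophagy factors are switched on in hypoxia and the HIF protein is lost within minutes once oxygen returns. The mRNA level that remains depends on how fast each transcript is made and how fast it decays. Transcripts of ribosomal proteins and metabolic enzymes are typically long-lived, whereas those of transcription factors, cell cycle regulators and other regulatory proteins often turn over quickly. Immediate-early genes such as Fos and Egr1 respond to stress or growth signals without new protein synthesis.

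Far more genes were lower than higher after the hour. There were 218 genes lower by 2-fold or more, which is 6.1% of the set, and 9 higher by as much, which is 0.252%. In the last hour of chronic hypoxia 6 genes were lower (0.168%) and 11 higher (0.308%), and in normoxia 1 was lower (0.028%) and 0 higher (0%). The median difference of all genes was 0.01 after cyclic hypoxia, -0.03 after chronic hypoxia and 0.04 in normoxia, so the excess lay in the lower tail. The 5th and 95th percentiles after cyclic hypoxia were -1.07 and 0.51, and the SD over genes was 0.49, against 0.27 after chronic hypoxia and 0.21 in normoxia. Most transcripts held, in that 2759 genes (77.2%) stayed within 0.5 of no difference on the log2 scale, compared with 94.4% after chronic hypoxia and 97.2% in normoxia. Divided by mean signal into 4 groups of equal size, from the dimmest to the brightest, the set had 78, 77, 47 and 16 lower genes. The excess of lower over higher genes was not seen without the limit on signal, since with no filter on mean signal 1040 of 12393 genes were lower and 1312 higher. Over all 4942 probe sets of the set 311 were lower (6.29%) and 20 higher (0.405%).

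**Figure D1:**
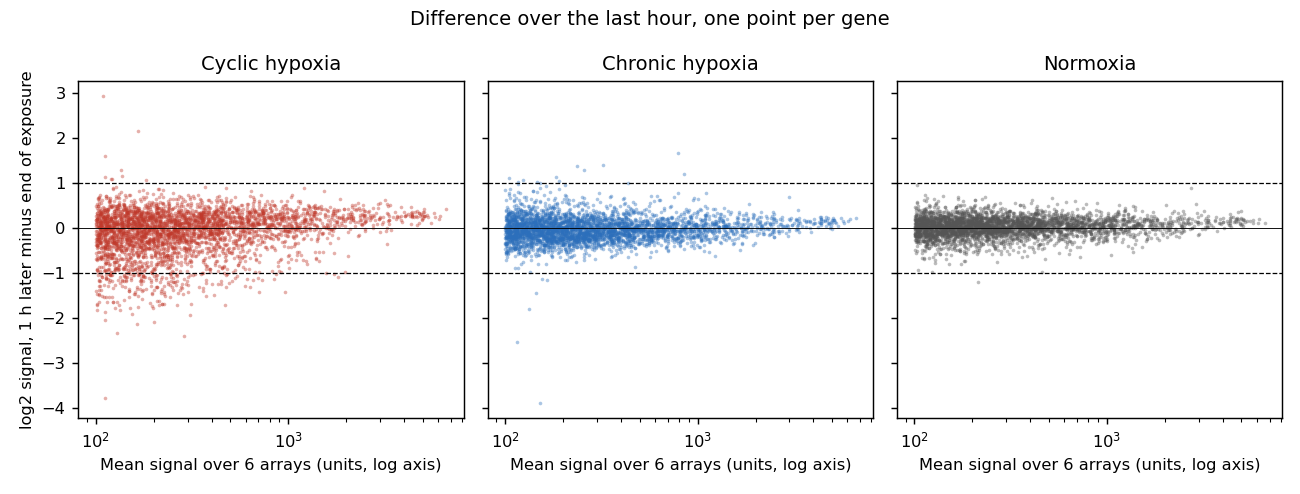
Difference over the last hour (log2 signal 1 h later minus end of exposure, vertical axis) against the mean signal over 6 arrays (units, log axis) for 3573 genes in each regime, 1 point per gene, with dashed lines at 2-fold. After cyclic hypoxia 218 points lie at or below the lower line and 9 at or above the upper line, against 6 and 11 after chronic hypoxia and 1 and 0 in normoxia.

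The array collected after cyclic hypoxia and the hour also stood apart technically. Its mean correlation with the other arrays over the 3573 genes was 0.917, against 0.953 to 0.961 for the others. Its median signal was the lowest, 15.9 units in a range up to 19.3, although the trimmed mean of every array was 100. The 24 poly-A control probe sets, RNAs added to each sample, were higher on it than on the array before the hour by a mean of 0.30, with 20 of 24 higher, and the 18 hybridisation controls by 0.25. In the normoxia pair those differences were 0.29 and 0.05, and in the chronic pair -0.17 and 0.31. Scaled on the poly-A controls the median difference of all genes after cyclic hypoxia became -0.29, with 419 genes lower and 3 higher, and scaled on the hybridisation controls it became -0.24, with 385 and 4. Actin 3'-to-5' signal ratios, which rise when RNA is degraded, were 1.25 before and 1.17 after the hour, and those of Gapdh were 0.900 and 0.845. The part of the array itself in the results was not tested.

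Melanoma identity was present on all arrays. The 7 melanoma markers on the array (Tyr, Tyrp1, Dct, Pmel, Mitf, Sox10 and Slc45a2) were all in the set, with summed signals between 18938 and 24770 units. No marker of fibroblasts, immune cells, endothelium or keratinocytes reached the mean of 100. Their summed signals were 21.1 to 38.5 units over 7 fibroblast markers, 55.2 to 79.0 over 7 immune markers, 25.6 to 44.1 over 6 endothelial markers and 17.7 to 24.7 over 5 keratinocyte markers, and 2 endothelial markers were under the floor on all arrays. The fibroblast, immune and endothelial sums were highest on the array after cyclic hypoxia and the hour, and their part in the results was not tested. In a culture measured in bulk, fewer cells of a kind and less RNA per cell cannot be told apart.

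The lowest difference was that of Malat1, an abundant nuclear long noncoding RNA. Its signals were 78.6 and 121 units in normoxia, 208 and 113 in chronic hypoxia, and 142 and then 10.4 in cyclic hypoxia, a difference of -3.78 (13.7-fold lower). Its other 4 probe sets were too dim for the set. Malat1 was the 1 of 6 measured members of the list of nuclear long noncoding RNAs that was 2-fold lower, and the other 5, among them the snoRNA hosts Gas5 (0.04) and Snhg8 (0.27), stayed within 0.5. Tug1, a long noncoding RNA outside that list and named after its value was seen, was -1.23, from 319.5 to 136 units.

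The other 11 of the 12 lowest genes encode proteins of several kinds. Ube3a, a ubiquitin ligase, had signals of 350.5 and 327 units in normoxia, 413 and 373 in chronic hypoxia, and 217 and then 41.0 in cyclic hypoxia, a difference of -2.41. Fmr1, which encodes an RNA-binding protein that restrains translation, stood at 202 and 214 units in normoxia, 215 and 193 in chronic hypoxia, and 134 and then 30.6 in cyclic hypoxia, a difference of -2.13. Pum2, a Pumilio repressor that recruits deadenylases to mRNAs, stood at 323 and 315 units in normoxia, 439 and 400.0 in chronic hypoxia, and 301 and then 79.0 in cyclic hypoxia, a difference of -1.93. In each of these the array after the hour was the lowest of the 6, and the cyclic array before it already lay below the 4 normoxic and chronic arrays. For Ube3a and Pum2 both chronic arrays lay above both normoxia arrays. The last hour of chronic hypoxia gave -0.15 for Ube3a, -0.16 for Fmr1 and -0.14 for Pum2.

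Clk1, a kinase of splicing factors, followed another path. Its signals were 119 and 117 units in normoxia, 197 and 204 in chronic hypoxia, and 232 and then 61.4 in cyclic hypoxia, so that it was highest at the end of cyclic hypoxia and lowest an hour later (-1.92). Rbm25, a splicing regulator, differed by -1.88 and Cstf3, a subunit of the polyadenylation machinery, by -1.82. The rest of the 12 lowest were Atad1 (-2.33), a mitochondrial ATPase that extracts misplaced proteins, Clcn3 (-2.08), an endosomal chloride exchanger, Scfd1 (-2.06), which acts in transport from the endoplasmic reticulum, Lims1 (-1.83), an adaptor of integrin adhesions, and Cul4b (-1.79), a ubiquitin ligase scaffold. Before the hour these 5 had signals between 126 and 164 units, and after it between 29.2 and 38.9 units. The other probe sets of Clcn3 were dimmer and gave -1.01, -0.88 and -0.29.

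**Figure D2:**
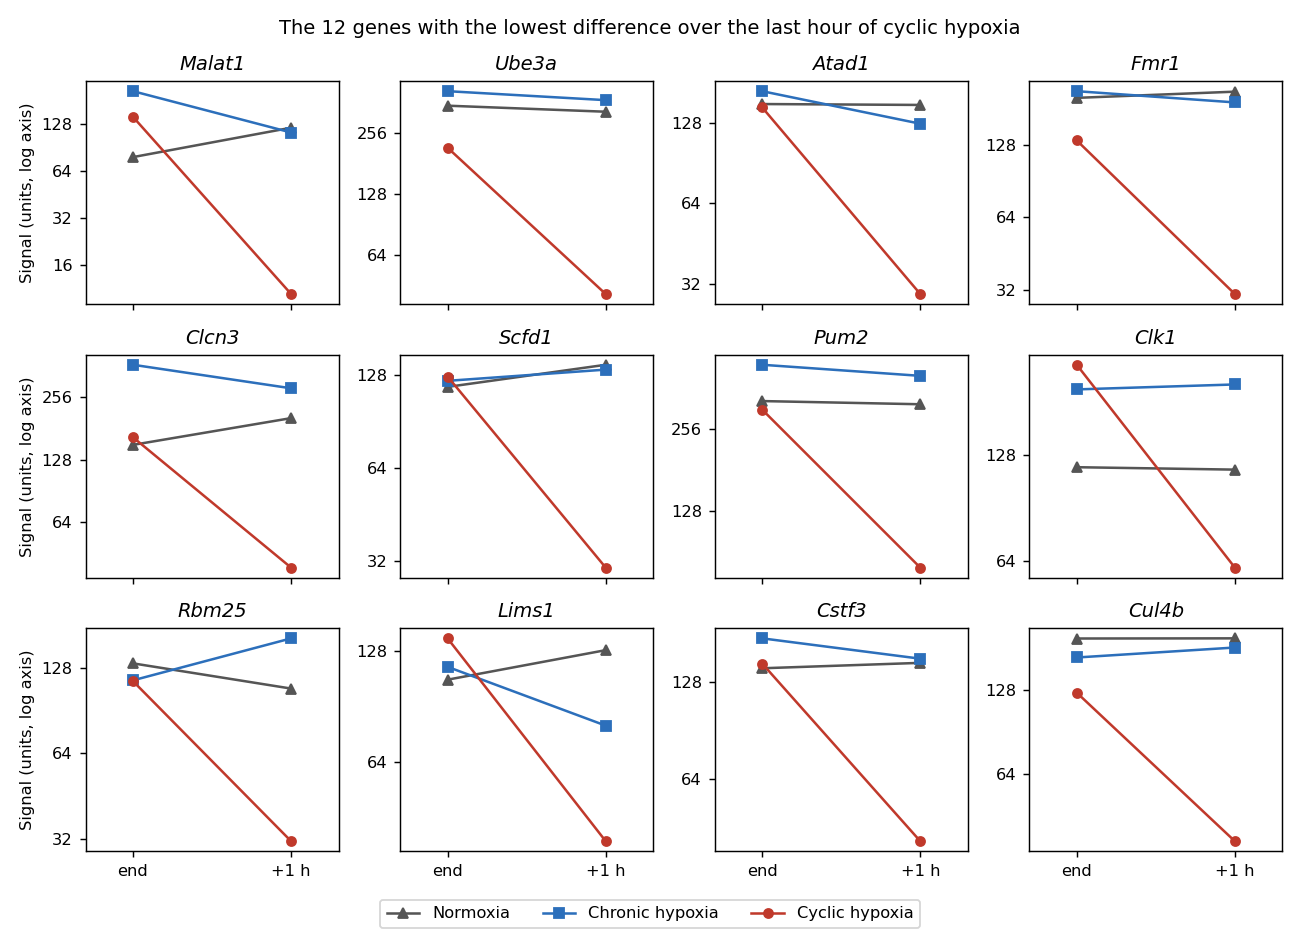
Signals (units, log axis) of the 12 genes with the lowest difference over the last hour of cyclic hypoxia, with each regime as a line from the end of exposure to 1 h later and 1 array per point. In these 12 genes the cyclic array after the hour is the lowest point, for example 10.4 units for Malat1 and 41.0 for Ube3a.

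Across the 218 lower genes the array after the hour was the lowest of all 6 in 213, which follows largely from their choice by the value on that array. The same genes had a median difference of -0.01 in the last hour of chronic hypoxia, with 1 lower and 1 higher by 2-fold, and 0.00 in normoxia, with 0 and 0. Whether the regimes differ was not tested. Before the hour the 218 genes had a median of -0.09 against the normoxia array. Of them 6 were 2-fold above it and 14 were 2-fold below, where 1.04% and 1.46% of all genes were. This comparison shares the earlier cyclic array. After the hour 168 of the 218 stood 2-fold or more below the normoxia array collected after its own extra hour, with a median of -1.44. Of all genes 7.61% did so. That comparison shares the later cyclic array, and the cyclic schedule was longer than the normoxia one. Few of the lower genes were bright, as 16 had a mean signal of at least 500 units. There were 35 genes lower by 3-fold or more and 6 lower by 4-fold or more. Of the 51 lower genes with several probe sets in the set, 50 had each of these below 0, and in 23 each was 2-fold lower. The exception was Ero1a, described below.

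The gene lists covered 880 of the 3573 genes. Of the 218 lower genes 53 were in a list and 165 in none, a similar share. Gene lists were read by their medians, against the median of 0.01 over all genes, and by their 2-fold counts, against 6.1% of all genes lower. Scaled on the poly-A controls each list median was 0.30 lower, which put each of them below 0. Quantile normalization put the lists for translation initiation, proteasome, glycolysis, proton pump, lysosome, invasion, solute carrier, pigment, housekeeping and NRF2 genes, all above 0 here, below 0 as well. The lowest median was that of RNA processing regulators. The list named for cold-inducible RNA-binding proteins and CLK kinases had a median of -0.66 over 10 measured genes, with 4 lower by 2-fold (Clk1, Rbm25, Luc7l3 and Rbm39) and 0 higher. Those 4 act in splicing or its regulation, and the cold-inducible members Cirbp and Rbm3 were not in the set. At the other end of that list Srpk1, a kinase of SR proteins, was 0.31 and Dyrk1a, a related kinase, 0.15. SR proteins and hnRNPs, which bind pre-mRNA, had a median of -0.10 over 25 genes and spread widely, from Hnrnph1 at -1.16 to Srsf5 at 0.59. Srsf5 went from 1320 to 1989 units while it was between 445 and 875 in the other 4 arrays.

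Chromatin, mRNA decay and helicase genes were also low as groups. Of 18 chromatin regulators 14 were below 0, the median was -0.29 and 4 were 2-fold lower. These were Arid2 (-1.62), a subunit of a SWI/SNF remodeller, Smarca5 (-1.49), the motor of ISWI remodellers, and the Polycomb genes Rnf2 (-1.44) and Bmi1 (-1.19). Dnmt1 (0.05), the maintenance DNA methyltransferase, and Smarca4 (0.23), a SWI/SNF motor, held. Of 20 genes for mRNA decay and microRNA action 16 were below 0, with a median of -0.20, and 3 were 2-fold lower, namely Pum2 and the deadenylase genes Cnot6l (-1.37) and Cnot6 (-1.34). After quantile normalization the median of that list was -0.09. DEAD and DEAH box helicases, which remodel RNA, had a median of -0.31 over 17 genes, with Dhx36 (-1.64) and Ddx3x (-1.16) 2-fold lower and Ddx39a at 0.37.

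Ubiquitin genes differed by enzyme class. Ubiquitin-specific proteases, which remove ubiquitin, had a median of -0.48 over 8 genes, from Usp1 at -1.71 to Usp5 at 0.33. Usp1, which acts in DNA repair, had signals of 564 and 576 units in normoxia, 498 and 509 in chronic hypoxia, and 521 and then 159 in cyclic hypoxia. With no filter on mean signal that list of 38 genes had the median of all genes, 0.00 apart. Cullins, F-box and RING ligases had a median of -0.27 over 37 genes, with 4 lower by 2-fold, and ubiquitin-conjugating enzymes -0.08 over 19, with Ube2g1 (-1.20) lower. The proteasome itself, which degrades the tagged proteins, held, with a median of 0.08 over 34 subunits, 0 of them past 2-fold and 30 within 0.5. Its ends were Psmc6 (-0.95), an ATPase of the cap, and Psmb10 (0.74), an inducible catalytic subunit.

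Genes of membrane traffic varied by family. Rab GTPases, which route vesicles, had a median of -0.24 over 27 genes, with Rab18 (-1.21) and Rab8b (-1.06) 2-fold lower, Rab1a at -0.24 and Rab17 at 0.59. Kinesins and dyneins, the microtubule motors, had a median of -0.12 over 14, with the light chain Dynlt3 (-1.37) lower and Kif3c at 0.67. Subunits of the vacuolar proton pump, which acidifies lysosomes and melanosomes, had a median of 0.09 over 16 and 0 past 2-fold, from Atp6ap2 (-0.96) to Atp6v1g1 (0.48).

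Transcripts of the translation and respiration machinery held or stood slightly higher. Cytosolic ribosomal proteins had a median of 0.29 over 40 genes, 39 above 0 and 0 past 2-fold, although after quantile normalization that median was 0.01, slightly below the median of all genes, and on the poly-A controls -0.01. The acidic ribosomal protein gene Rplp0 had signals of 3984 and 4385 units in normoxia, 4915 and 5567 in chronic hypoxia, and 4207 and then 5020 in cyclic hypoxia, a difference of 0.26. The lowest member was Rps27l at -0.09, and the highest, Rpl37, was 0.90 but also differed by -0.70 between the normoxia arrays. Mitochondrial ribosomal proteins had a median of 0.29 over 66, 54 above 0, and the respiratory chain and ATP synthase 0.28 over 73, 66 above 0. Neither list had a member past 2-fold, and scaled on the poly-A controls their medians were -0.01 and -0.02. In the chronic pair the medians of the 3 lists were 0.16, -0.11 and 0.03, and in the normoxia pair 0.13, 0.09 and 0.12.

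Not all members of these complexes held. Ndufs1, the largest subunit of complex I, had signals of 362 and 432 units in normoxia, 436 and 412 in chronic hypoxia, and 449.9 and then 237 in cyclic hypoxia, a difference of -0.92, while Ndufa13, a small subunit of the same complex, was 0.61. Among translation initiation factors, with a median of 0.05 over 36, 4 were 2-fold lower. These were Eif5 (-1.29), the GTPase-activating factor of start codon choice, Eif1a (-1.05), a factor of start codon scanning, Eif2s2 (-1.02), a subunit of eIF2, and Eif2ak3 (-1.18), the eIF2 kinase PERK. Other probe sets of Eif2s2 with a mean signal of at least 100 units gave -0.10, -0.56, -0.73 and -1.38. The eIF3 subunit gene Eif3f held (0.07), and Eif4ebp1 (0.60), which binds eIF4E and blocks assembly of the cap-binding complex, was the highest. Aminoacyl-tRNA synthetases had a median of 0.20 over 13, from Eprs (-0.67) to Tars (0.45).

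**Figure D3:**
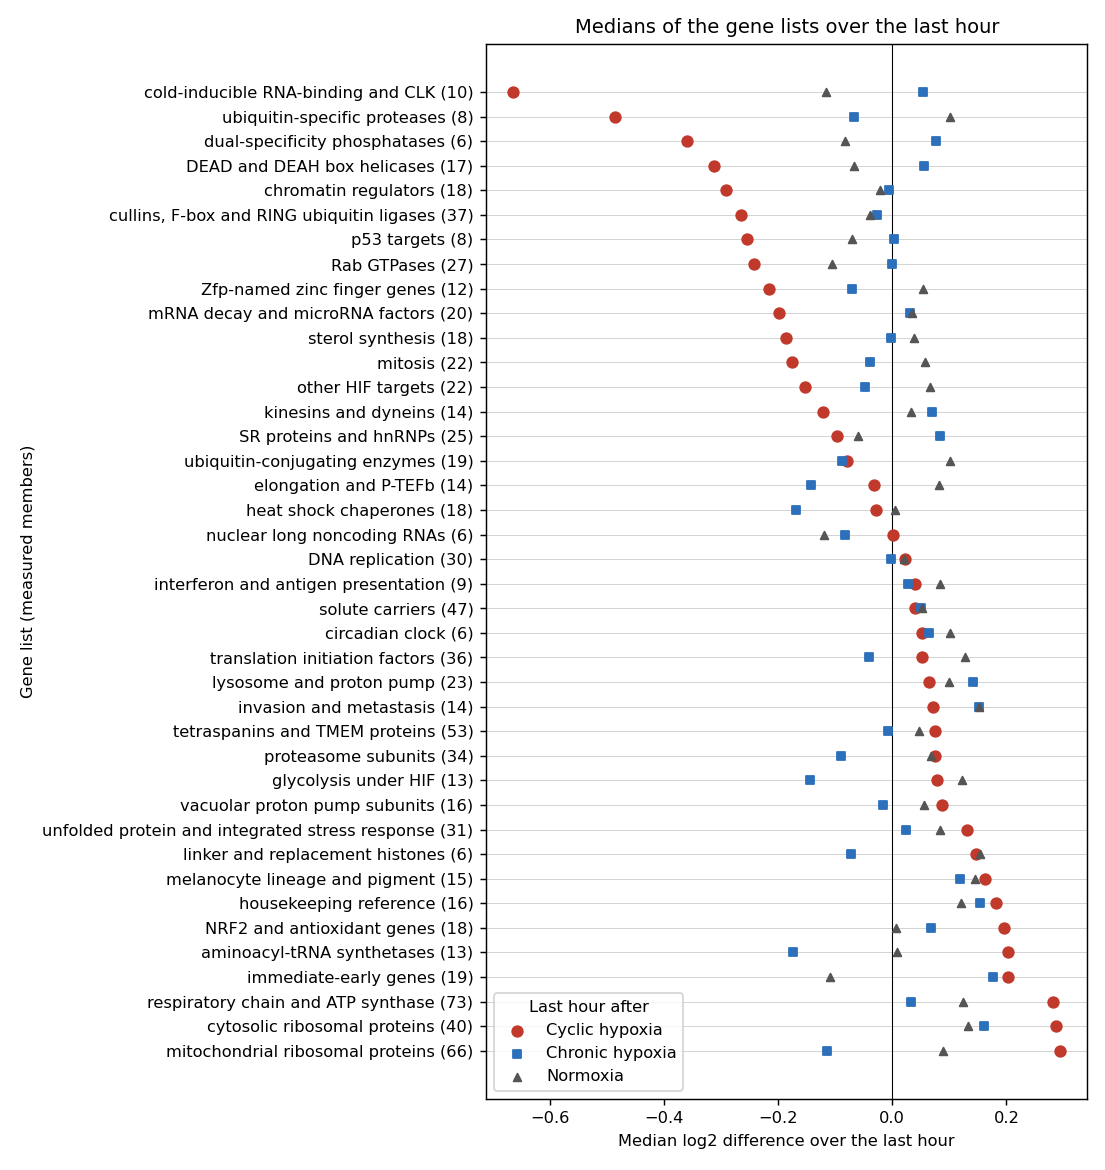
Median log2 difference over the last hour for each gene list with at least 5 measured members (number in parentheses), after cyclic hypoxia (circles), chronic hypoxia (squares) and normoxia (triangles). The cyclic medians run from -0.66 to 0.29 around an all-gene median of 0.01, and with quantile normalization the cytosolic ribosomal protein median is 0.01 and not 0.29.

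Lower transcripts came more often from long genes. Span is the genomic length from the first to the last base of the gene, introns included, from RefSeq on GRCm38.p6, and 3572 of the 3573 genes had one. The genes were ranked by span and divided into 4 groups of equal size. In the group of shortest genes (508 to 8516 bases) 10 of 893 were 2-fold lower (1.12%), and the median difference was 0.24. The next group (8518 to 19013 bases) had 34 lower (3.81%) and a median of 0.06. The one after it (19026 to 40344 bases) had 60 lower (6.72%) and a median of -0.10. The group of longest genes (40349 to 856648 bases) had 114 lower (12.8%) and a median of -0.26, with 660 of 893 genes below 0. Thus 114 of the 218 lower genes came from the group of longest genes, although 577 genes of that group (64.6%) stayed within 0.5.

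In the chronic and normoxia pairs the span groups lay close together. Their medians by span group, from shortest to longest, were -0.04, -0.04, -0.04 and -0.02 after chronic hypoxia, and 0.07, 0.04, 0.03 and 0.03 in normoxia. Longer genes were also dimmer here, with median mean signals of 385 units in the group of shortest genes and 192 in that of longest. In the dimmer part of the set, split at the median mean signal, the share of genes 2-fold lower was 1.27%, 4.34%, 8.91% and 15.7% from the shortest to the longest genes, and in the brighter part it was 1.04%, 3.30%, 4.39% and 7.52%. The length of the mature transcript was not used here.

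**Figure D4:**
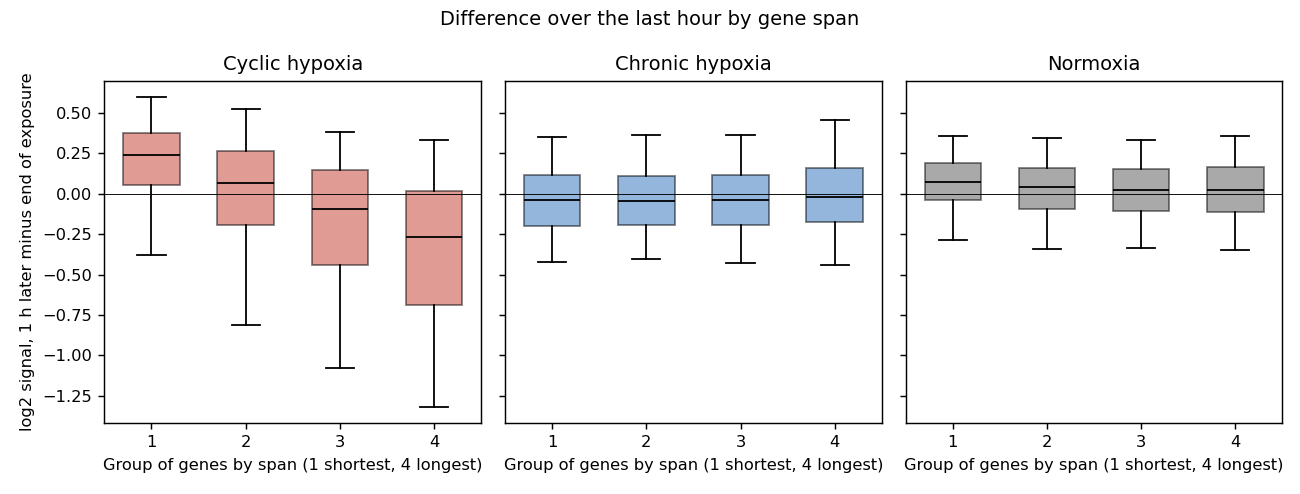
Log2 difference over the last hour by group of genomic gene span (1 shortest, 4 longest, 893 genes each) in the 3 regimes, where boxes show the quartiles, lines the medians and whiskers the 5th and 95th percentiles over genes. The cyclic medians go from 0.24 to -0.26 (each 0.30 lower when scaled on the poly-A controls), and those of the other regimes stay between -0.04 and 0.07.

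The same contrast appeared inside gene families when members were split at the median span of all genes, 19019.5 bases. The 7 shorter Rab genes had a median of 0.23 and the 20 longer ones -0.37. The 14 shorter cullin, F-box and RING genes had a median of 0.06 with 0 lower by 2-fold, and the 23 longer ones -0.43 with 4 lower. Solute carriers gave 0.15 over 19 shorter and -0.21 over 28 longer genes, mitosis genes -0.11 over 13 and -0.50 over 9, and mitochondrial ribosomal proteins 0.32 over 58 and -0.04 over 8. In the respiratory chain the split was small, with 0.28 over 63 shorter and 0.25 over 10 longer genes. Individual genes went against the gradient, such as Oca2 (296926 bases, 0.09), a melanosomal transporter, which held, and Malat1 (6983 bases), which was the lowest. The gene lists also differed in span. Median spans were 55746 bases for chromatin regulators, 31776.5 for mRNA decay genes and 19069 for helicases. They were 3609.5 bases for cytosolic ribosomal proteins, 7447 for mitochondrial ones and 7279 for the respiratory chain. The part of span in the list medians was not tested.

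Promoter CpG content gave a weaker gradient. Of the genes, 2975 (83.3%) had a RefSeq promoter window, the 250 bases before and 50 after the start. From the fewest to the most CpG dinucleotides per window, 4 groups of equal size had 30, 30, 60 and 60 genes 2-fold lower and medians of 0.08, 0.05, 0.02 and -0.11.

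HIF targets were split, some lower and others level. Of 22 targets outside glycolysis 4 were 2-fold lower (Ero1a, Tfrc, Kdm3a and Ccng2), the median was -0.15 and 15 stayed within 0.5. Of 13 glycolysis genes 0 passed 2-fold and the median was 0.08. The core HIF recognition letters ACGTG, searched on both strands, were found in the promoter windows of 13 of 19 other HIF targets and 10 of 13 glycolysis genes, against 32.5% of the set, 31.7% of the lower genes and 21.8% of all 27025 genes in the RefSeq table. The first of the sequences below belongs to a target that held and the second to one that was lower on its brightest probe set. They are the 250 bases before the start of Bnip3 (chr7:138909507-138909756, minus strand) and of Ero1a (chr14:45318573-45318822, minus strand), on GRCm38.p6, in the direction of the gene, with the ACGTG match in capitals (in Bnip3 it reads on both strands as CACGTG, in Ero1a on the opposite strand).
Bnip3: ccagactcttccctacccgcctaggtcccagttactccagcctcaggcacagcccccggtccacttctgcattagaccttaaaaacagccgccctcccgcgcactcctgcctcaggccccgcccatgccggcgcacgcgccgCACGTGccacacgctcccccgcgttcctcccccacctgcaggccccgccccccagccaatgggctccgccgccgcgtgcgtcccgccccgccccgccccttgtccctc
Ero1a: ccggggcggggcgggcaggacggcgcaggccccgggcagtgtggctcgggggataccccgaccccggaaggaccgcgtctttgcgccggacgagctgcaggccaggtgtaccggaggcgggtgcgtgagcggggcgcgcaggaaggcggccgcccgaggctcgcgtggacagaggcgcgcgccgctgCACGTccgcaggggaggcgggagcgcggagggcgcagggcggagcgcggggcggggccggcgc
The match starts 108 bases before the start of Bnip3 and 63 bases before that of Ero1a, so such letters were present in a target of either behaviour.

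Bnip3, a mitophagy receptor, had signals of 127 and 123 units in normoxia, 803 and 549 in chronic hypoxia, and 332 and then 366 in cyclic hypoxia. It was thus above the normoxia arrays before and after the hour, with a difference of 0.14 over the hour against -0.55 in the chronic pair. Hk2, the inducible hexokinase, stood at 165 and 164 units in normoxia, 1279 and 885 in chronic hypoxia, and 534 and then 405 in cyclic hypoxia, a difference of -0.40, and the glucose transporter gene Slc2a1 at 152 and 175 units in normoxia, 793 and 578 in chronic hypoxia, and 385 and then 301 in cyclic hypoxia, a difference of -0.36. For these 3 genes both cyclic arrays lay above both normoxia arrays and below both chronic arrays. Ndrg1, a stress-responsive HIF target, was 0.35 and reached 369.8 units, the highest of its 6 values.

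The glycolytic enzyme genes Pgk1 and Tpi1 differed by 0.08 and 0.53. Pdk1, the kinase that inhibits pyruvate dehydrogenase, and Ak4, a mitochondrial adenylate kinase, were too dim on average for the set. They went from 83.5 to 53.9 and from 55.7 to 26.2 units, differences of -0.63 and -1.09. Vegfa, the angiogenic factor, was also outside the set (0.15).

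The lower HIF targets ended at different levels relative to normoxia. Ero1a, the oxidase that makes disulfide bonds in the endoplasmic reticulum, had signals of 209.7 and 264 units in normoxia, 1367 and 1223 in chronic hypoxia, and 509 and then 203 in cyclic hypoxia, a difference of -1.32. Its probe sets disagreed. The dimmest of them gave -1.29, from 258 to 105 units. The remaining one gave 0.17, from 433 to 487 units, above its normoxia signals of 297 and 312 units. Kdm3a, an oxygen-dependent histone H3K9 demethylase, stood at 241 and 273 units in normoxia, 729 and 883 in chronic hypoxia, and 767 and then 363 in cyclic hypoxia, a difference of -1.08, so it remained above both normoxia arrays. Tfrc, the transferrin receptor, was -1.17 and Ccng2, a cyclin that slows the cell cycle, -1.01. Hif1a itself, which encodes the oxygen-regulated subunit, had signals of 557 and 472 units in normoxia, 524 and 668 in chronic hypoxia, and 449 and then 179.6 in cyclic hypoxia, a difference of -1.32, with the array after the hour the lowest of the 6.

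For other stress-responsive genes the chronic and cyclic pairs gave different values, and that contrast was not tested. Ddit4, an inhibitor of mTORC1, was 1.39 in the chronic pair and 0.16 in the cyclic pair, and Bhlhe40, a transcriptional repressor, 1.39 and 0.17. Txnip, which limits glucose uptake, was -2.54 in the chronic pair and -0.77 in the cyclic pair.

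Among the 9 higher genes 3 were immediate-early genes, Egr1, Ccn1 and Fos. Egr1, a zinc finger transcription factor, had signals of 52.1 and 35.2 units in normoxia, 99.0 and 93.1 in chronic hypoxia, and 43.7 and then 333 in cyclic hypoxia, a difference of 2.93 (7.63-fold higher). It entered the set through its last value, since the mean of its other 5 signals was 64.6 units, under the limit of 100. Ccn1, a secreted matrix protein, stood at 41.0 and 35.2 units in normoxia, 206 and 244 in chronic hypoxia, and 35.2 and then 107 in cyclic hypoxia, a difference of 1.60, and Fos, a subunit of AP-1, at 55.6 and 55.7 units in normoxia, 230.4 and 264 in chronic hypoxia, and 39.6 and then 84.5 in cyclic hypoxia, a difference of 1.09. For Fos the array before the hour was the lowest of the 6, and for Ccn1 it was level with the second normoxia array. For both genes the array after the hour still lay below both chronic arrays, whereas for Egr1 it was above all others. Other members differed less, as of 19 measured 3 were 2-fold higher and 1 lower, the median was 0.20 and 14 were above 0. Jun, the partner of Fos, was 0.35 and Mcl1, an anti-apoptotic gene, 0.05. Myc had signals of 78.5 and 91.0 units in normoxia, 109 and 197 in chronic hypoxia, and 92.0 and then 35.0 in cyclic hypoxia, a difference of -1.40, so that its array after the hour was the lowest while its second chronic array was the highest.

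The promoters of Fos and Ccn1 hold the same 8 letters close to the start, TGACGTAG, a variant of the cAMP response element TGACGTCA bound by CREB and ATF factors. These letters were chosen for counting after both the values and the sequences had been read. The 250 bases before the start are shown in the direction of the gene, with those letters in capitals (on the opposite strand in Ccn1), for Fos (chr12:85473640-85473889, plus strand) and Ccn1 (chr3:145649986-145650235, minus strand) from RefSeq on GRCm38.p6.
Fos: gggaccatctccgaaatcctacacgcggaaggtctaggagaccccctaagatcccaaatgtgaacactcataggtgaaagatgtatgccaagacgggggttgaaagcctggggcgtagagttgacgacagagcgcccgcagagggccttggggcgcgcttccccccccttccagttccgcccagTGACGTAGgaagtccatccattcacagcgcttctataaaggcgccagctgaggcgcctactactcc
Ccn1: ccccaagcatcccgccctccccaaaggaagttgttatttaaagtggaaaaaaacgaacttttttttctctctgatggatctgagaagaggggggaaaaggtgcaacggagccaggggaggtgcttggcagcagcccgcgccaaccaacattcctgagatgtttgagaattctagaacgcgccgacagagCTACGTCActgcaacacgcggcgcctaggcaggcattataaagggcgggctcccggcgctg
The match starts 66 bases before the start of Fos and 61 bases before that of Ccn1. On both strands it was found in 2 of the 7 higher genes with a window, in 4 of 180 lower genes, in 1.01% of the set and in 0.492% of all genes in the table. The full element TGACGTCA was found in 0 of the 7, in 8 of the 180 and in 3.87% of the set.

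The other higher genes were of several kinds. Nupr1, a stress-induced chromatin cofactor, had signals of 77.5 and 77.6 units in normoxia, 183 and 186 in chronic hypoxia, and 90.9 and then 204 in cyclic hypoxia, a difference of 1.17, and H2aw, a histone H2A gene, was 1.13. Like Egr1, H2aw had a mean under the limit over its other 5 signals, 99.6 units. The palmitoyltransferase gene Zdhhc6 was 2.15, but another probe set of it went from 106 to 98.4 units. Trub2, a mitochondrial pseudouridine synthase gene, was 1.29, Agpat5, a lipid acyltransferase gene, 1.09, and Ddr1, a collagen receptor gene, 1.06 with 1.15 in the chronic pair. Zdhhc6, Trub2, Agpat5 and Ddr1 had been 2-fold or more below normoxia at the end of cyclic hypoxia, where 1.46% of all genes stood. That comparison shares the array before the hour, so a low value on it makes a gene look lowered first and higher afterwards. In 7 of the 9 higher genes the array before the hour was the lowest of the 6, and in 5 the array after it was the highest. This follows largely from their choice by the values on these 2 arrays. Just short of 2-fold were Mlph (0.92), a melanosome transport adaptor, and Tspyl1 (0.92).

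Stress response genes were mixed. The list for unfolded protein and integrated stress responses (31 measured genes) lay at a median of 0.13, with 1 lower and 1 higher by 2-fold. Eif2ak3 (-1.18), the PERK gene, and Ero1a (-1.32) were counted in other lists and not in this one. Atf4, the main transcription factor of the integrated stress response, was 0.35 and its target Ddit3, which encodes CHOP, went from 156 to 243 units (0.64). Gtpbp2, a GTPase of ribosome rescue, had signals of 59.9 and 83.4 units in normoxia, 282 and 81.3 in chronic hypoxia, and 204 and then 87.7 in cyclic hypoxia, a difference of -1.22 with -1.80 in the chronic pair. Its probe sets disagreed in size, as another had 85.0 and 105 units in normoxia, 104 and 103 in chronic hypoxia, and 113 and then 93.6 in cyclic hypoxia (-0.27). The NRF2 list, genes of antioxidant defence, had 0 of 18 past 2-fold and a median of 0.20. Hmox1, heme oxygenase, stood at 71.5 and 67.9 units in normoxia, 187 and 164 in chronic hypoxia, and 191 and then 221 in cyclic hypoxia, and Gstm1, a glutathione transferase, at 1250 and 1055 units in normoxia, 1179 and 1260 in chronic hypoxia, and 888 and then 1635 in cyclic hypoxia, a difference of 0.88. Heat shock chaperones had a median of -0.03 over 18, with the co-chaperones Chordc1 (-1.40) and Dnaja1 (-1.14) lower, the inducible Hspa1b at -0.01 and Hspe1 at 0.39.

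Most pigment genes held while their main regulator was lower. Mitf, the master transcription factor of the melanocyte lineage, had signals of 2366 and 2568 units in normoxia, 2820 and 2225 in chronic hypoxia, and 1256 and then 635 in cyclic hypoxia. It thus lay below the other 4 arrays before the hour and lower still after it, a difference of -0.98. The pigment enzymes Tyr (-0.18) and Dct (0.19) and the fibril protein gene Pmel (0.28) stayed within 0.5. Dct stood at 5731 and 6557 units and Tyr at 2628 and 2312. Myo5a, the motor that carries melanosomes, was the 1 member of 15 past 2-fold (-1.11), and the median of the list was 0.16, or -0.14 when scaled on the poly-A controls and -0.05 after quantile normalization.

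**Figure D5:**
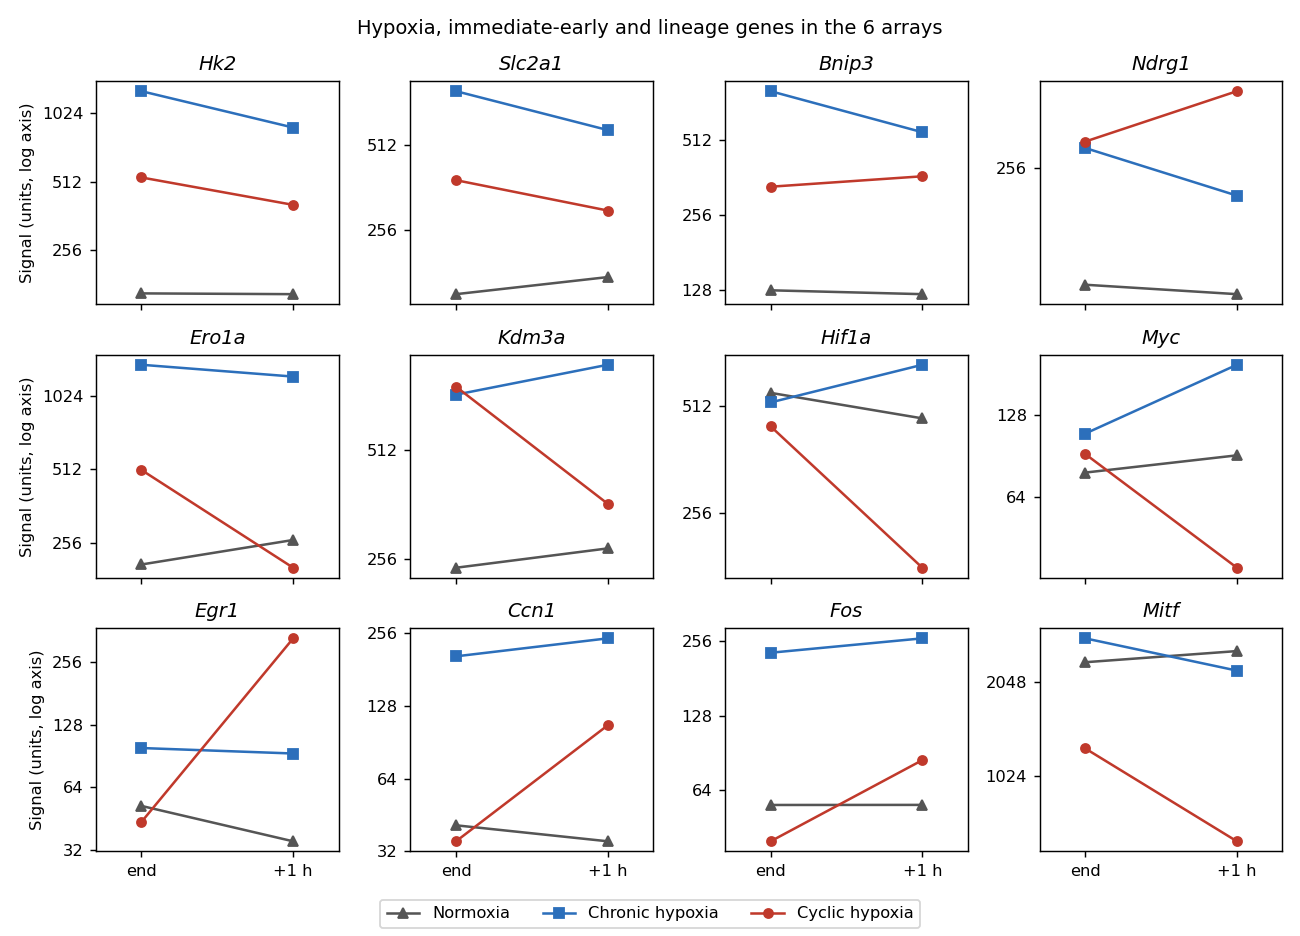
Signals (units, log axis) of 12 hypoxia, immediate-early and lineage genes, with each regime as a line from the end of exposure to 1 h later and 1 array per point. Hk2, Slc2a1 and Bnip3 stay above normoxia after the cyclic hour, Ero1a, Hif1a, Myc and Mitf are lowest there, and Egr1 is there at the highest of its 6 points, 333 units. Each gene is shown by its brightest probe set, and another of Ero1a gave 0.17.

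Cell cycle genes were uneven. Of 22 mitosis genes 18 were below 0, with a median of -0.18 and 2 lower by 2-fold. Top2a, the mitotic topoisomerase, had signals of 514 and 533 units in normoxia, 524 and 521 in chronic hypoxia, and 359.8 and then 152 in cyclic hypoxia, a difference of -1.24, while Cdk1 was -0.18 and Birc5, which encodes survivin, 0.40. DNA replication genes had a median of 0.02 over 30, from the origin recognition gene Orc2 (-1.27) to the licensing factor gene Cdt1 (0.69). Ccnd1, cyclin D1, held (0.27). Among 8 measured p53 targets the median was -0.25, with Trp53inp1, an autophagy-linked gene, going from 185 to 67.0 units (-1.47), Cdkn1a, which encodes p21, at -0.18 and the p53 ligase gene Mdm2 at -0.33.

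Genes of invasion and of lipid synthesis had single members far below the rest. Met, the receptor of hepatocyte growth factor, had signals of 128 and 152 units in normoxia, 176 and 160.2 in chronic hypoxia, and 207 and then 71.4 in cyclic hypoxia, a difference of -1.53, and Itgb1, the shared integrin beta subunit, was -1.10. The other 12 of 14 invasion and metastasis genes did not pass 2-fold, and the list's median was 0.07. In sterol synthesis, with a median of -0.19 over 18, Idi1, an isomerase of isoprenoid units, was -1.34, Hmgcs1, an early enzyme of the pathway, -0.18 and Pmvk, phosphomevalonate kinase, 0.45. Of 47 solute carriers 3 were 2-fold lower, the lowest being Slc12a2 (-1.53), the sodium-potassium-chloride cotransporter, and Slc20a1 (0.73), a phosphate importer, was the highest. The housekeeping list had a median of 0.18 over 16 and 0 past 2-fold, with Actb at 0.33 and Hprt at -0.29, and it was below 0 (-0.12) when scaled on the poly-A controls.

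The genes that cyclic hypoxia had already set apart from normoxia followed different courses over the hour. This comparison shares the array at the end of cyclic hypoxia with the last-hour difference, so a high value on that array makes a gene look raised first and lower afterwards, and the values are given side by side. There were 37 genes 2-fold or more above the normoxia array at the end of exposure (1.04%). Over the hour 22 of them stayed within 0.5 and 6 were 2-fold lower, against 77.2% and 6.1% of all genes. Their median was -0.23, and 12 were still 2-fold above normoxia afterwards, where 0.98% of all genes stood. Those that persisted included the linker histone gene H1f2 (2.18 above normoxia at the end and 2.04 after the hour), Hmox1 (1.42 and 1.70), Bnip3 (1.38 and 1.57), Trib3 (1.12 and 1.60), a stress pseudokinase gene, and Srsf5 (1.36 and 2.16). The 6 lower were Rsrp1 (1.89 and then 0.63), Ero1a, Gtpbp2, Eif2ak3, Rnf19a and Kdm3a. Ero1a and Gtpbp2 each had another probe set that did not pass 2-fold over the hour.

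There were 52 genes 2-fold or more below normoxia at the end (1.46%). Over the hour 14 of these were lower by 2-fold again and 4 were 2-fold higher, against 6.1% and 0.252% of all genes. The 4 higher were Zdhhc6, Trub2, Agpat5 and Ddr1, described above. The median of the 52 was -0.54, and 32 were still 2-fold below normoxia afterwards, where 7.61% of all genes stood. Stag2, a cohesin subunit, was -1.10 from normoxia at the end and -2.83 after the hour, and the deadenylase gene Cnot6 -1.13 and -2.33. Kpnb1, an import receptor, was -1.39 from normoxia at the end and 0.03 after the hour. Its cyclic arrays went from 320 to 434 units, while its normoxia arrays went from 836 to 427.

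Just under the limit of a mean signal of 100 units stood Cnppd1 (a difference of 0.38), Pold4 (99.9 units, 0.80) and Numb (99.9 units, -0.16), and just above it Brcc3 (100.1 units, -0.30), Syf2 (100.2 units, -0.13) and Klf15 (100.2 units, -0.56).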

How the data were processed

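Signal intensities of 22690 probe sets were deposited by the authors for each of 6 arrays, on a linear scale. GCOS, an Affymetrix program, is named in the submitters' processing notes, and its version and algorithm are not given in the sources used here. The trimmed mean of each array, without 2% at each end, was 100 units, so the scaling was kept as deposited. Without detection calls, background could not be judged probe set by probe set. There were 20393 probe sets that named 1 gene by GEO's platform annotation, 691 several and 1606 none. Current symbols were found for 20364 of them by Entrez identifier in RefSeq's gene table. The 64 control probe sets were left out.

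Log2 differences were taken in Python 3.11.15 with numpy 2.4.6 and pandas 2.3.3, after setting values under 2.1 to 2.1. The limit of a mean of 100 units over all 6 arrays and the brightest probe set of each gene then gave 3573 genes. Counts are of genes at 2-fold or more. The single array per group limits precision, and no test was made. The script recovered known differences in simulated data. The members of the set, the 48 gene lists (880 of 2003 listed genes measured) and the comparisons were chosen with earlier results of these data known. Named genes are the 12 lowest and 12 highest over the hour, of each list the lowest, the highest and the one nearest the median, and a fixed set of hypoxia, stress, lineage and reference genes. Further members were named after their values were seen. Gapdh was named on control probe sets and is given by its 3'-to-5' ratio. Gene spans and promoter windows are from RefSeq on GRCm38.p6. Of the properties planned, protein length and the zinc finger linker were not analysed here. Alternatives covered scaling, floor, mean signal, fold limit and choice of probe set.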

Additional observations from a re-analysis of the deposited data

Results flagged for a closer look

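Lamp2, a lysosomal membrane protein gene, had opposite differences over the last hour in the hypoxic regimes, and the contrast between them was not tested. It was -1.14 after cyclic hypoxia, from 716 to 325 units, and 1.20 after chronic hypoxia, from 537 to 1234 units. Its normoxia arrays had 1224 and 1045 units, so that on this probe set the array at the end of chronic hypoxia and both cyclic arrays were the low ones. The probe sets disagreed. Another bright one had 773 and 921 units in normoxia, 785 and 1055 in chronic hypoxia and 705 and 225 in cyclic hypoxia, differences of 0.43 after chronic and -1.65 after cyclic hypoxia. The dimmer ones gave 0.19 and 0.91 after chronic and -0.68 and 0.022 after cyclic hypoxia.

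Among 534 probe sets that named no gene or several and that the gene counts did not use, 23 were 2-fold lower over the last hour of cyclic hypoxia (4.31%) and 6 were higher. In the chronic pair 2 were lower and 3 higher, and in the normoxia pair 3 and 0.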

How the results depend on the processing

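Fold limits of 1.5 and 3 gave 542 and 35 lower genes and 108 and 3 higher ones, in place of 218 and 9. A mean signal of at least 200 left 99 lower and 0 higher of 2171 genes, a mean of at least 50 gave 356 and 23 of 5127, and no filter gave 1040 and 1312 of 12393. With every probe set counted there were 20 higher. Scaling on the hybridisation controls gave 385 lower and 4 higher with a median of -0.24, and scaling on the poly-A controls 419 and 3 with a median of -0.29. These controls and the removal of probe sets shared between transcripts were chosen after seeing the data. The 114 lower genes of the longest span group became 56 at a mean of 200, 182 at 50, 403 with no filter, 202 on hybridisation and 215 on poly-A controls. The 10 of the shortest group became 5, 22, 174, 16 and 19 under the same settings, and 17 over every probe set. Quantile normalization (151 and 10), median centring (168 and 11), a floor of 10 units (218 and 9), the mean over the 4 other arrays (253 and 8), averaged probe sets (215 and 9) and removal of shared probe sets (204 and 6) moved neither gene count by over 1.5 times.

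Relative to all genes, list medians changed sign in 34 of 527 recomputed values. Of the 179 values from lists at least 0.2 from all genes, 4 changed sign. Cytosolic ribosomal proteins were -0.0063 after quantile normalization, and with no filter Kruppel-like factors were 0.17, dual-specificity phosphatases 0.037 and ubiquitin-specific proteases 0.00022. Of 805 recomputed differences of named genes 337 moved by more than the SD of the normoxia pair and 79 changed sign, 58 of them on the control probe sets, and 0 of the 230 from genes past 2-fold changed sign. No paired analysis was possible because each group has 1 array and the labels carry no replicate numbers, and no array could be left out.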

Other observations

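Gene lists outside the comparisons above are given by their values over the last hour of cyclic hypoxia, beside a median of 0.01 and 6.1% lower for all genes. Interferon and antigen presentation genes held closely, with a median of 0.04 over 9 genes and each within 0.5, among them H2-K1 (0.04), a class I antigen-presenting molecule, and B2m (0.22), its light chain. Tetraspanins and TMEM proteins had a median of 0.07 over 53 and 0 past 2-fold, from Tmem106b (-0.90), a lysosomal membrane protein, to Tmem223 (0.62). Lysosomal genes had a median of 0.06 over 23, with Lamp2 (-1.14) lower and Gaa (0.71), which degrades glycogen, the highest. Another probe set of Gaa gave -0.23, from 171 to 146 units. Linker and replacement histones had a median of 0.15 over 6 and 0 past 2-fold.

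Regulatory lists with few measured members were mixed. Dual-specificity phosphatases, several of which switch off MAP kinases, had a median of -0.36 over 6 and 0 past 2-fold, from Dusp11 (-0.98), an RNA phosphatase, to Dusp19 (0.70). The 12 Zfp-named zinc finger genes had a median of -0.22, with Zfp91 (-1.19) lower. Elongation and P-TEFb genes had a median of -0.03 over 14, with Aff4 (-1.10), a scaffold of the super elongation complex, lower and Brd2 (0.33) the highest. Another probe set of Brd2 gave -0.17, from 158 to 141 units. Clock genes had a median of 0.05 over 6, with Nr1d2 (-1.17), a nuclear receptor repressor, lower and Dbp (0.49) the highest. The 3 JmjC demethylase genes (median -0.25) held Kdm3a beside Jmjd6 (-0.25) and Kdm2b (-0.05), and the 3 NF-kB genes (median -0.02) were Rela (-0.14), Nfkbia (-0.02) and Nfkbib (0.56). Klf15 (-0.56) was the measured Kruppel-like factor and Zscan21 (-0.05) the measured SCAN gene.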
